A study of Mus musculus with 64 samples.

Results

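The genes described here were 73 processed pseudogenes that gave sequencing reads in mammary tumors of PyMT mice. They were chosen from 55381 genes in the counts summed per mouse, of which 10000 are typed as processed pseudogenes. A processed pseudogene entered when it reached 5 CPM (its count, scaled to the total of the mouse) in the highest of 4 mice, and 4 genes were left out by name. The level in the highest mouse therefore selected the members, and 31 of the 73 reached 5 CPM in all 4 mice while 42 fell short of it in at least 1. Members just inside the threshold were Gm12183, Gm6542 and Gm11478 at 5.04, 5.23 and 5.27 CPM in their highest mouse. Just outside it were Gm4366, Rps10-ps2 and Rpl38-ps2 at 4.90, 4.81 and 4.71 CPM.

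Processed pseudogenes are copies of spliced messenger RNAs that were written back into the genome by retrotransposition. They lack introns, usually lie on another chromosome than the gene they were copied from, and are seldom driven by a promoter of their own. Because a copy can be nearly identical to its source, a short read from either can be placed at the other, and inbred mouse strains differ both in which copies they carry and in single bases of copy and source.

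Each group was 1 mouse with 2 tumors. G174 carried the Abi1 fl/fl genotype with Cre (homozygous KO, tumors 1 and 6), and G164 was fl/wt with Cre (heterozygous KO, tumors 3 and 6). G184 was fl/fl without Cre (homozygous control, tumors 6 and 9), and G144 was fl/wt without Cre (heterozygous control, tumors 6 and 8). All 4 mice carried the PyMT transgene, a viral oncoprotein expressed from the MMTV promoter in mammary epithelium, and Cre was also driven by MMTV. The study's methods give a C57BL6 origin for the PyMT and floxed lines and a mixed strain for the Cre line. Experimental animals came from PyMT fl/fl males mated with fl/wt females that carried MMTV-Cre. Mice with and without Cre could therefore both inherit DNA of the Cre line. The 2 KO and control pairs differ in more than Abi1: G164 and G184 were older than G144 and G174, and strain background may differ between any of the mice. Genotype, strain background, age and individual mouse cannot be told apart with 1 mouse per group, and each p-value below reflects only how far the 2 tumors of a mouse differ. No strain genotype was analysed here, so whether a member marks a strain was not tested.

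Sequencing was deep and similar in all tumors, with 50346075 to 69264893 reverse-strand gene counts per tumor, and 10.5% to 14.2% of reads mapped to several places and were not counted. Abi1, the targeted gene and an adaptor of actin assembly, was at 8.93 and 6.47 CPM in G174, 63.1 and 66.7 CPM in G164, 114 and 122 CPM in G184, and 111 and 130 CPM in G144. All 8 epithelial markers were detected in every tumor, and their summed level was 3798 to 3894 CPM in G174, 3367 to 3497 in G164, 3361 to 3731 in G184 and 3654 to 3878 in G144. The summed level of 3 T cell markers was 1.37 to 1.45 CPM in G174, 5.73 to 7.12 in G164, 5.87 to 6.46 in G184 and 2.29 to 2.33 in G144. The members took 0.0684% to 0.111% of the gene counts of a tumor.

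The transcripts of the members were aligned to all protein-coding transcripts of GENCODE M21. The identity to the best coding match had a median of 98.0% over the 73 members, with 50 members at 95% or more and 7 at 100%. For 24 members the match was a gene of the ribosome. Many windows of 50 bases were not unique: the median share of such windows found letter for letter in a transcript of another gene was 57.4%, and for 10 members it was 100%. All 7 members at 100% matched over their whole length and still had 2381 to 9390 counts over the 8 tumors. Which copy a read came from is uncertain for members this close to their match.

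How few bases separate a member from its match is shown for 6 coding genes and the members that matched them. Each line is a stretch of 90 bases of the coding sequence, from the GENCODE M21 transcripts on GRCm38, written 5′ to 3′, and capitals mark the bases at which member and coding gene differ. In each case the stretch with the most differences was taken, for Rplp0 by its differences from Gm8730. The first set holds Rplp0 on chromosome 5, which encodes the central protein of the ribosomal stalk, and 3 members; a capital in Rplp0 marks a difference from any of them.
Rplp0: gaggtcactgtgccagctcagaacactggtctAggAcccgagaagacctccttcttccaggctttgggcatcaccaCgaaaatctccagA
Gm8730: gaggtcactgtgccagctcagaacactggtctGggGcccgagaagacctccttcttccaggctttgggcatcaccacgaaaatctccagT
Gm9625: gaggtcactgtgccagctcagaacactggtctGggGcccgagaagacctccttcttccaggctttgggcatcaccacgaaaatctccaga
Gm14165: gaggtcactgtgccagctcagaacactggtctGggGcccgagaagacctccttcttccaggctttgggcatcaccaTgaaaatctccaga

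Over their full length Gm8730 differed from Rplp0 by 12 mismatches in 954 aligned bases, Gm9625 by 24 in 955 and Gm14165 by 25 in 954. The stretches lie at chr8:102865352-102865441 on the minus strand for Gm8730, chr13:67810603-67810692 on the plus strand for Gm9625 and chr2:152353970-152354059 on the plus strand for Gm14165, and at bases 358 to 447 of the Rplp0 coding sequence. The next set holds the other members that the results turn on, each above its coding gene: Gm15459 and Hspa8 (the constitutive chaperone Hsc70), Gm8210 and Rpl29 (a 60S ribosomal protein), Rps3a3 and Rps3a1 (a 40S ribosomal protein), Atp6v0c-ps2 and Atp6v0c (the proton-pore subunit of the vacuolar ATPase), and Tdg-ps2 and Tdg (thymine DNA glycosylase, a base excision repair enzyme).
Gm15459: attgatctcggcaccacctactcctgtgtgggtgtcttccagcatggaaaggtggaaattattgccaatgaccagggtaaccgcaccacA
Hspa8: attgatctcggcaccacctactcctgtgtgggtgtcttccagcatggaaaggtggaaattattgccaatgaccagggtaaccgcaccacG
Gm8210: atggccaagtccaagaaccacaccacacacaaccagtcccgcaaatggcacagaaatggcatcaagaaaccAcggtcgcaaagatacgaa
Rpl29: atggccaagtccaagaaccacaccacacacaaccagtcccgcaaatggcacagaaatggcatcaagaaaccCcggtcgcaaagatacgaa
Rps3a3: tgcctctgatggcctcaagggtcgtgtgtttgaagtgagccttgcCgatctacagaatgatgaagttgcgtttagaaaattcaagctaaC
Rps3a1: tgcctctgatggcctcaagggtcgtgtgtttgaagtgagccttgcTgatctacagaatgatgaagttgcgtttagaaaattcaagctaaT
Atp6v0c-ps2: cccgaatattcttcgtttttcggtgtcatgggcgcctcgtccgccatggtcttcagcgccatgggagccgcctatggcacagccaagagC
Atp6v0c: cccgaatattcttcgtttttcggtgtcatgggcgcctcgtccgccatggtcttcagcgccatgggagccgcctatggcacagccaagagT
Tdg-ps2: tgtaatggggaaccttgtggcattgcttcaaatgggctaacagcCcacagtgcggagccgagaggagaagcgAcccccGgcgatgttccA
Tdg: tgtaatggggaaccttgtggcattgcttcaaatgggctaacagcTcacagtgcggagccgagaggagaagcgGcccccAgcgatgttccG

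These stretches lie at chr5:5783442-5783531 (minus strand) for Gm15459, chr1:43189156-43189245 (plus strand) for Gm8210, chr13:108670773-108670862 (plus strand) for Rps3a3, chr6:37806107-37806196 (plus strand) for Atp6v0c-ps2 and chr10:42054206-42054295 (minus strand) for Tdg-ps2. Gm15459 differed from Hspa8 by 5 mismatches in 1941 aligned bases, Gm8210 from Rpl29 by 3 in 483, Rps3a3 from Rps3a1 by 9 in 795 and Tdg-ps2 from Tdg by 9 in 1194. Atp6v0c-ps2 differed from Atp6v0c by 1 mismatch in 465, so the single capital letter shown is the only base that differs over that length.

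Most members were seen in every mouse. With presence set at 1 CPM or more in both tumors of a mouse and absence at under 0.1 CPM in both, on the strand of the gene, 55 members were present in all 4 mice, 6 were absent in all 4, 2 were present in some and absent in others, and 10 had an intermediate level in at least 1 mouse. The 2 members that met both limits were Gm8210 and Hist1h2al.

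Gm8210 (ENSMUSG00000094497.1, chr1:43189156-43189638, plus strand) was present in both mice of the fl/wt genotype and absent in both fl/fl mice. For Gm8210 the share of 50-base windows found in a transcript of another gene was 100%, so the copy its reads came from is uncertain. Its level was 0.02 and 0.00 CPM in G174, 4.06 and 4.02 CPM in G164, 0.00 and 0.02 CPM in G184, and 6.02 and 6.29 CPM in G144. These levels stand for 1 read in G174, 464 reads in G164, 1 read in G184 and 746 reads in G144, and a count of 1 leaves the fold undefined within wide limits, so none is given. The genes of any type whose levels were most like it over the 8 tumors, as log2(CPM + 0.1), were Gm15459 (Pearson's r = 0.998), Gm9008 (r = 0.996) and Gm11868 (r = 0.996), of which Gm15459 and Gm11868 are members.

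Hist1h2al (ENSMUSG00000091383.2, chr13:51202727-51203065, minus strand), a copy of a core histone H2A gene that best matched Hist2h2aa1, was present in G174 and G144, absent in G184 and near the lower limit in G164. It stood at 17.5 and 22.6 CPM in G174, 0.06 and 0.13 CPM in G164, 0.03 and 0.06 CPM in G184, and 27.8 and 37.3 CPM in G144. The 2 low mice held 11 reads in G164 and 6 reads in G184, against 2655 reads in G174 and 3905 reads in G144. Its nearest genes in pattern were the members Rpl34-ps1 (r = 0.998) and Rps3a3 (r = 0.996) and the pseudogene Capza1-ps1 (r = 0.995). Gm2830, the only other member within 5 Mb of either gene, varied little: its mean was 3.65 CPM in G174, 5.63 in G164, 3.31 in G184 and 3.74 in G144.

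The presence limits missed members that fell a long way without reaching 0.1 CPM. A second description was therefore added after the values were seen: the lowest tumor of the high mice over the highest tumor of the other mice, with 0.05 CPM added to each, for the division of the 4 mice that made this ratio largest. The ratio was at least 4 for 15 of the 73 members, 2 to 4 for 5 members and under 2 for 53. Over all 22187 genes tested 0.82% reached 4, but the members were selected on their highest mouse, so nothing is read from that difference. Leaving out Gm8210, the mean of the highest mouse was 12.7 to 720.2 times that of the lowest among the other 14. The upper end was Hist1h2al, whose lowest mouse, G184, held 6 reads, so that fold is poorly fixed. The next largest was Gm11942 at 99.5. The largest fold between the 2 tumors of a mouse, with 0.05 CPM added to each tumor, had a median of 1.37 over the 15 and reached 2.17. The 15 lay on 10 chromosomes, of the 19 that hold members.

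**Figure D1:**
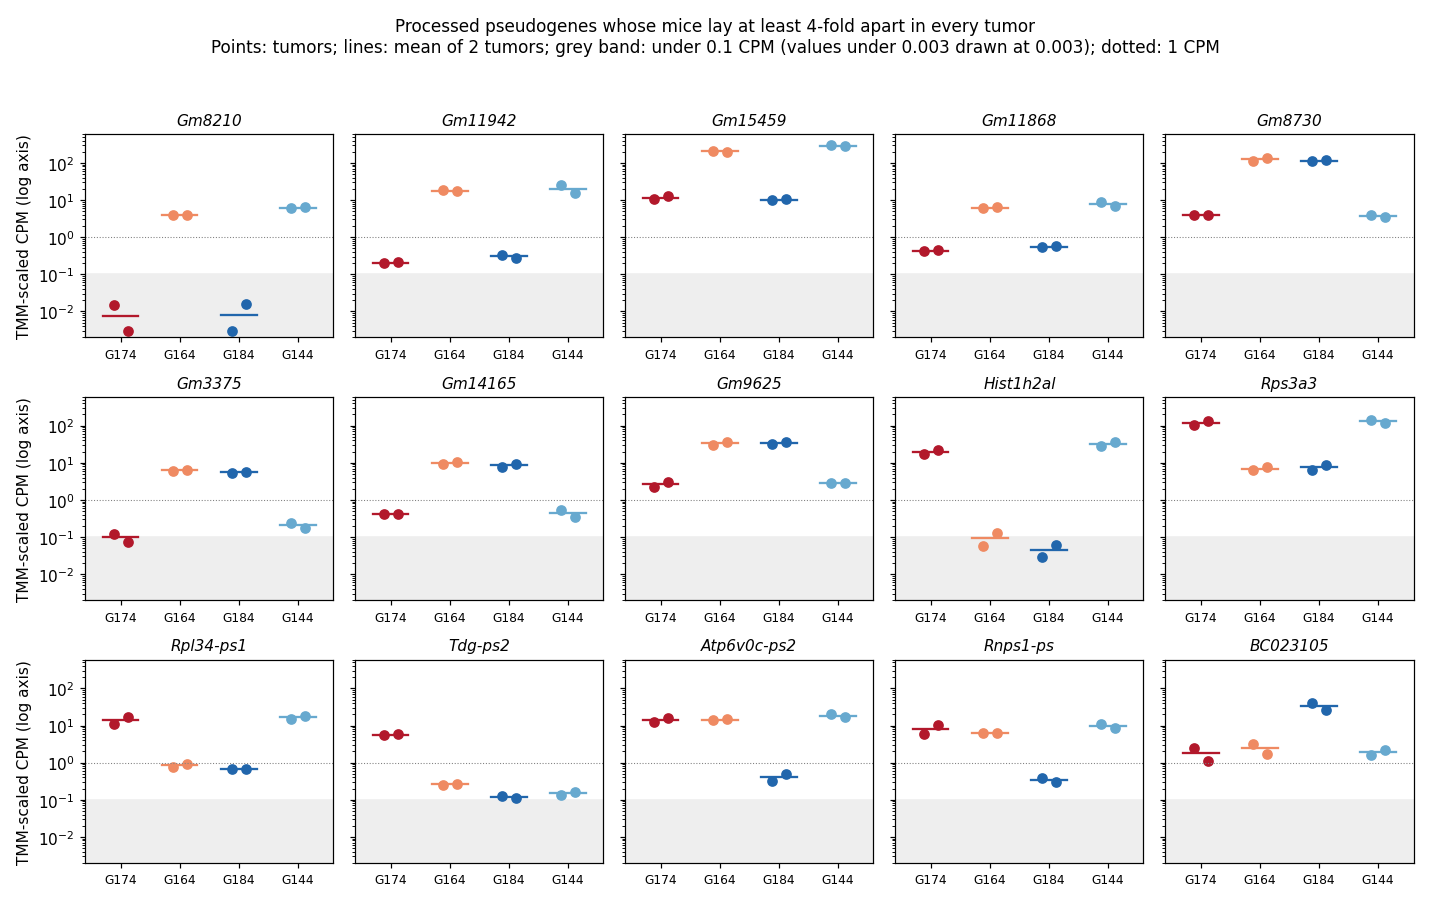
TMM-scaled CPM on a log axis for the 15 members whose mice lay at least 4-fold apart, with a point for each tumor and a line at the mean of a mouse's 2 tumors; the grey band is under 0.1 CPM and the dotted line is 1 CPM. The 2 tumors of each mouse sit close together while the mice fall into a high and a low set, and the high set differs between members.

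One set of 4 members was high in G164 and G144, the fl/wt mice, and low in G174 and G184, the fl/fl mice. Gm15459 (chr5:5781615-5783555) was the most abundant member, at 10.5 and 12.8 CPM in G174, 211 and 200.3 CPM in G164, 9.89 and 10.4 CPM in G184, and 295 and 279 CPM in G144. Gm11942 (chr4:32964888-32965232), whose best match with introns was Rplp1, another protein of the ribosomal stalk, averaged 0.20 ± 0.01 CPM in G174, 18.0 ± 0.4 in G164, 0.31 ± 0.04 in G184 and 20.3 ± 7.5 in G144 (SD, n = 2 tumors). Gm11868 (chr4:18844202-18845679), a match of the cytochrome b5 reductase gene Cyb5r4, averaged 0.43 ± 0.03 CPM in G174, 6.17 ± 0.26 in G164, 0.56 ± 0.03 in G184 and 7.90 ± 1.59 in G144 (SD, n = 2 tumors). Gm8210 completes this set. None of the 4 passed the test of G164 against G144 or of G174 against G184 (edgeR adjusted p = 0.0643 to 0.695 and 0.288 to 0.993), and all 4 were lower in G184 than in G144, Gm15459 by a log2 fold change of -4.82 ± 0.14 (SE, adjusted p = 5.18e-05). Eef1a1-ps1, which matched the elongation factor gene Eef1a1, followed the same order with a smaller gap of 2.11, at 3.27 and 4.14 CPM in G174, 9.35 and 8.79 CPM in G164, 3.46 and 3.56 CPM in G184, and 10.4 and 11.4 CPM in G144.

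Another 4 members were high in G164 and G184, which were also the older mice, and low in G174 and G144. Gm8730 (chr8:102864845-102865798) had 3.87 and 4.03 CPM in G174, 114 and 135 CPM in G164, 113 and 118 CPM in G184, and 4.05 and 3.39 CPM in G144. Gm9625 (chr13:67810246-67811200) had 2.25 and 3.04 CPM in G174, 30.7 and 36.3 CPM in G164, 31.4 and 35.3 CPM in G184, and 2.88 and 2.87 CPM in G144. Gm14165 (chr2:152353615-152354566) had 0.41 and 0.42 CPM in G174, 9.33 and 10.3 CPM in G164, 7.86 and 9.31 CPM in G184, and 0.55 and 0.34 CPM in G144. These 3 members all matched Rplp0 although they lie on different chromosomes, and their bases in the stretch printed above differ from Rplp0 at shared and at private positions. Gm3375 (chr7:3181093-3181888), which matched the proteasome subunit gene Psmb5, had 0.12 and 0.08 CPM in G174, 5.87 and 6.56 CPM in G164, 5.39 and 5.55 CPM in G184, and 0.24 and 0.18 CPM in G144. In this set the heterozygous and homozygous KO comparisons had opposite signs: Gm8730 was higher in G164 than in G144 by a log2 fold change of 5.07 ± 0.15 (edgeR adjusted p = 9.16e-05) and lower in G174 than in G184, at -4.87 ± 0.15 (adjusted p = 0.000112). The 2 controls differed too, with Gm8730 at a log2 fold change of 4.95 ± 0.15 in G184 over G144 (adjusted p = 5.18e-05).

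The mirror set of 3 members was high in G174 and G144 and low in G164 and G184. Rps3a3 (chr13:108670603-108671397) had 103 and 130.1 CPM in G174, 6.42 and 7.47 CPM in G164, 6.35 and 8.56 CPM in G184, and 139 and 121 CPM in G144. Rpl34-ps1 (chr6:71124610-71124963), which matched the 60S ribosomal protein gene Rpl34, had 10.8 and 16.7 CPM in G174, 0.76 and 0.93 CPM in G164, 0.68 and 0.67 CPM in G184, and 15.4 and 17.6 CPM in G144. All of its 50-base windows were found in a transcript of another gene. Hist1h2al belongs to this set, and Rps3a2, a second match of Rps3a1, followed with a gap of 3.16. Rps3a3 was lower in G164 than in G144 by a log2 fold change of -4.22 ± 0.21 (edgeR adjusted p = 0.000489), and higher in G174 than in G184 at 3.97 ± 0.20 (adjusted p = 0.000398).

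The next sets turned on a single mouse. Atp6v0c-ps2 (chr6:37806086-37806550) was low in G184 alone, at 12.2 and 15.5 CPM in G174, 13.7 and 14.8 CPM in G164, 0.32 and 0.48 CPM in G184, and 20.4 and 16.4 CPM in G144. Rnps1-ps (chr6:7982541-7983383), which matched the splicing regulator gene Rnps1, was likewise at 5.86 and 10.1 CPM in G174, 6.48 and 6.20 CPM in G164, 0.39 and 0.30 CPM in G184, and 11.2 and 8.75 CPM in G144. Against G184 both were higher in G174, Atp6v0c-ps2 by a log2 fold change of 5.10 ± 0.27 (edgeR adjusted p = 0.000398), and neither passed in G164 over G144 (adjusted p = 0.319 and 0.214). Tdg-ps2 (chr10:42054113-42055306) was high in G174 alone, at 5.39 and 5.87 CPM there, 0.25 and 0.27 CPM in G164, 0.13 and 0.11 CPM in G184, and 0.14 and 0.16 CPM in G144. Ndufa12-ps, a match of the respiratory complex I gene Ndufa12, was also highest in G174, with 8.03 and 9.60 CPM against 1.80 to 3.92 CPM in the other tumors.

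A different kind of member was high in G184. BC023105 (chr18:60441765-60442980), which best matched the interferon-inducible GTPase gene Gm4841 at 94.4% identity, had 2.44 and 1.10 CPM in G174, 3.26 and 1.73 CPM in G164, 40.6 and 25.6 CPM in G184, and 1.64 and 2.24 CPM in G144. Gm12250, with a best coding match of 68.5% identity (Gm5431), had 13.3 and 8.80 CPM in G174, 25.7 and 12.8 CPM in G164, 119 and 96.6 CPM in G184, and 5.18 and 5.88 CPM in G144. Gm5970, which matched the immunity-related GTPase gene Iigp1 at 88.1% identity, had 3.03 and 1.43 CPM in G174, 11.8 and 7.01 CPM in G164, 23.5 and 24.1 CPM in G184, and 0.40 and 1.04 CPM in G144. Gm12250 was lower in G174 than in G184 by a log2 fold change of -3.28 ± 0.36 (edgeR adjusted p = 0.00477) and BC023105 by -4.23 ± 0.51 (adjusted p = 0.00605). Between the controls, G184 over G144, the call of BC023105 (log2 fold change 4.09 ± 0.50, adjusted p = 0.00669) was lost without G144 tumor 6 (adjusted p = 0.0741). In these 3 members few 50-base windows were shared with another gene (14.7%, 0% and 0.943%), and the coding genes moved too: Iigp1 had 136 and 97.1 CPM in G174, 287 and 184.1 CPM in G164, 1401 and 1196 CPM in G184, and 54.0 and 87.7 CPM in G144. Gm5970 also overlaps the protein-coding gene Gm4951 on the same strand, and which of these its reads came from was not tested. Macrophage markers summed to 95.03 to 103 CPM in G174, 170.1 to 178 in G164, 172 to 247 in G184 and 89.5 to 115 in G144, and with the T cell markers above their part in this result was not tested.

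In 5 of the 6 sets, most members of a set had coding matches on the same 1 or 2 chromosomes. Matches were limited here to coding transcripts with introns; this limit, the sets and their chromosomes were chosen after the values were seen, so no test is given. All 5 members with a gap of 2 or more that were high in G164 and G144 matched genes on chromosome 9 (Rpl29, Rplp1, Hspa8, Cyb5r4 and Eef1a1), although none of the 5 lies there. Of the 4 that were high in G174 and G144, 3 matched genes on chromosome 3, and Hist1h2al matched H2afj on chromosome 6. The 2 that were low in G184 alone matched genes on chromosome 17, and the 2 that were high in G174 alone matched genes on chromosome 10. Of the 5 that were high in G164 and G184, 3 matched Rplp0 on chromosome 5 and 1 matched Psmb5 on chromosome 14; Gm5970 matched Iigp1 on its own chromosome. Over these 5 sets 16 of 18 members had their match on the chromosomes named for their set. Of the 18, 1, Tdg-ps2, itself lay on the chromosome of its set, and 4 of 18 lay on any of the 6 chromosomes. The chromosomes were read from these same matches, so a high count of matches was built in and the counts cannot be compared. The 16 also count singly the 3 members that matched Rplp0 and the 2 that matched Rps3a1. With the best match of any kind for every member the count was also 16 of 18: Hist1h2al then matched the intronless Hist2h2aa1 on chromosome 3, and Gm11942 matched Gm10073 on chromosome 8. The set high in G184 alone did not follow this: BC023105 and Gm12250 matched genes on different chromosomes, in each case their own. Members with a gap under 2 also matched genes there: of 53, 6 matched genes on chromosome 9, 4 on chromosome 10, 4 on chromosome 14, 4 on chromosome 17, 1 on chromosome 5 and 0 on chromosome 3.

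**Figure D2:**
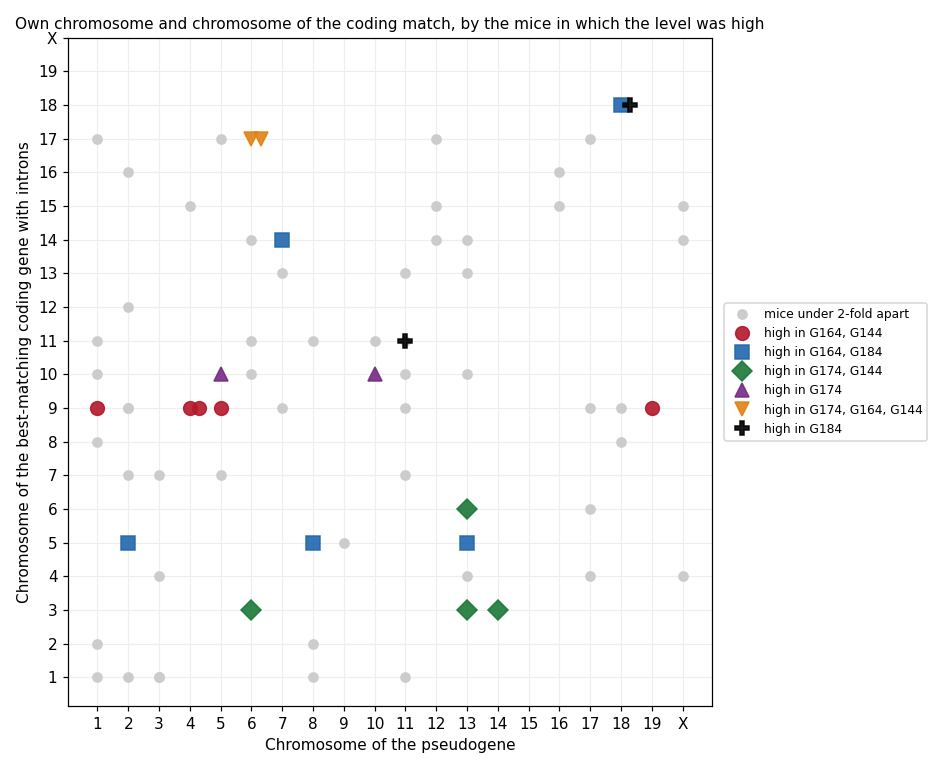
Chromosome of each member (x axis) against the chromosome of its best coding match with introns (y axis), with the shape and colour of a point giving the mice in which the member was high, and grey points for members whose mice lay under 2-fold apart. Most members high in the same mice share rows (chromosomes 3, 5, 9, 10, 14 or 17 of the match) and spread over columns, except those high in G184 alone; members in the same cell are drawn side by side.

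Most coding matches of the members with a gap of 4 or more varied less between mice than those members. The members were picked for their wide gap, so nothing is read from this contrast. Over 11 coding genes matched by 13 members with a gap of 4 or more and by Rps3a2, the mean of the highest mouse was 1.13 to 2.23 times that of the lowest. The other 2 members with such a gap are not among them. Hist2h2aa1, the match of Hist1h2al, averaged 0 CPM in each mouse. Only uniquely placed reads were counted, so this need not mean that Hist2h2aa1 was silent. Gm4841, the match of BC023105, averaged 0.583 CPM in G174, 1.35 in G164, 50.4 in G184 and 1.34 in G144, a wider range than that of BC023105. Rps3a1 averaged 508 ± 82 CPM in G174, 621 ± 51 in G164, 581 ± 44 in G184 and 556 ± 32 in G144 (SD, n = 2 tumors), and did not pass the test among the 4 mice (edgeR adjusted p = 0.454). Rpl34 (adjusted p = 0.689), Rplp1 (0.201), Cyb5r4 (0.121), Atp6v0c (0.0982) and Rnps1 (0.0635) did not pass it either. Rplp0 did (adjusted p = 0.0203), and its level ran against that of its 3 members: 1342 ± 195 CPM in G174, 853 ± 96 in G164, 790.0 ± 63.5 in G184 and 1491 ± 85 in G144. Psmb5 was also low where Gm3375 was high, at 31.7 ± 5.4 CPM in G174, 22.5 ± 2.8 in G164, 20.9 ± 1.8 in G184 and 37.7 ± 0.9 in G144 (adjusted p = 0.0343). Some coding matches of members with a gap under 2 were lower in G164 and G184 as well. Rpl10a averaged 444 CPM in G174, 296 in G164, 265 in G184 and 445 in G144. Rpl19 averaged 495, 325, 284 and 469 CPM in the same order of mice. Rps3a1 and Rpl34 did not have this order. Whether the levels of Rplp0 and Psmb5 depend on their members was not tested. The test was also passed by Rpl29 (adjusted p = 0.0108), at 201 ± 30 CPM in G174, 89.8 ± 6.9 in G164, 135 ± 3 in G184 and 124 ± 2 in G144, by Tdg (0.0369), which was highest in G144 at 38.8 ± 1.1 CPM, and by Hspa8 (0.0441), at 1886 ± 267 CPM in G174, 1141 ± 24 in G164, 1540 ± 20 in G184 and 1667 ± 41 in G144. Hspa8 and Tdg did not run against their members in this way. Rpl29 was lower in G164 and G144, where Gm8210 was high, than in G174 and G184. Among the matches that did not pass, the means of Atp6v0c, Rps3a1, Rpl34 and Cyb5r4 were also lower in the high mice of their members. Those of Rplp1 and Rnps1 did not follow this. Adding the members to Rplp0 brought the ratio of highest to lowest mouse to 1.58, against 1.89 for Rplp0 alone, and adding Gm3375 to Psmb5 brought it to 1.44, against 1.81. For Atp6v0c this ratio went to 1.28, against 1.62. For Hspa8, which did not run against its member, the ratio also fell, to 1.45 against 1.65. It moved little for Rpl29 (2.14 against 2.23), Tdg (1.44 against 1.44), Rplp1 (1.285 against 1.285) and Rnps1 (1.39 against 1.41).

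As a share of the counts of coding gene and members together, the high mice of a set gave similar values. The 3 members of Rplp0 took 0.520% in G174, 16.5% in G164, 16.6% in G184 and 0.470% in G144. Rps3a3 and Rps3a2 took 20.5% of the sum with Rps3a1 in G174, 1.73% in G164, 1.83% in G184 and 20.8% in G144. Gm15459 took 0.615% of the sum with Hspa8 in G174, 15.3% in G164, 0.656% in G184 and 14.7% in G144. Atp6v0c-ps2 took 18.5% in G174, 21.2% in G164, 0.468% in G184 and 22.2% in G144, and Gm3375 took 0.310% in G174, 21.7% in G164, 20.8% in G184 and 0.557% in G144. These are shares of counts and not levels per length. Within the Rplp0 group the makeup changed as well: Gm9625 counts were 26.8% to 30.0% of Gm8730 counts in the 4 tumors of G164 and G184, and 58.3% to 84.7% in the 4 tumors of G174 and G144, with no overlap.

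**Figure D3:**
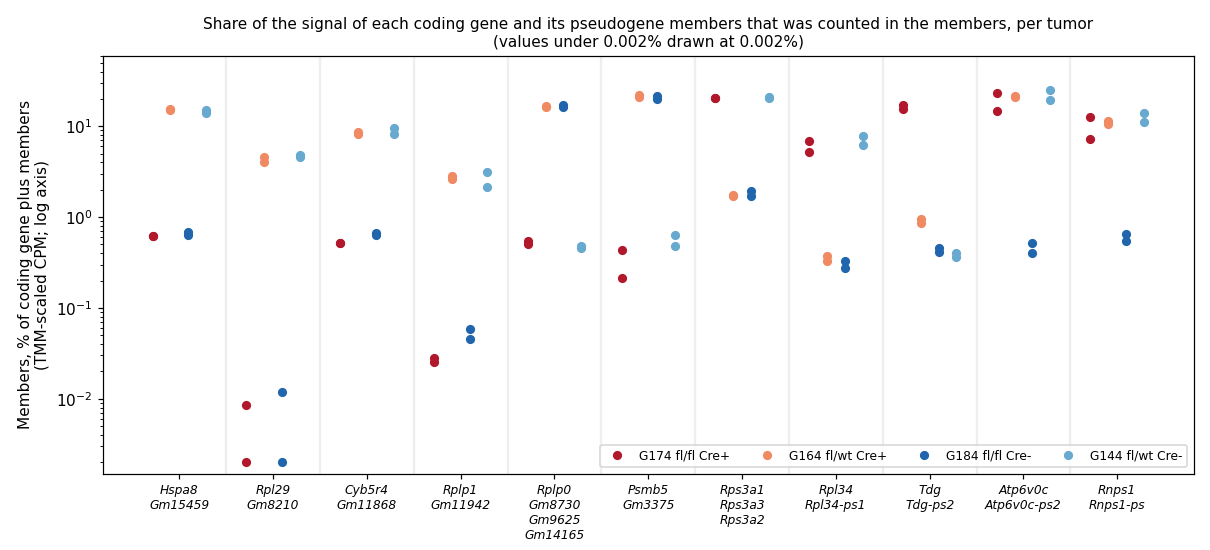
Share of the summed CPM of a coding gene and its members that was counted in the members, in percent on a log axis, with a point for each tumor, for 11 coding genes with the members named under each. The high mice of a set lie close to each other, such as 16.5% in G164 and 16.6% in G184 for Rplp0, and the low mice lie at or below 1.95%.

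The test across all 22187 genes was then read for the 67 members that passed its filter on low counts; the other 6 had almost no reads on their own strand. Members were selected on the highest mouse, so their counts are a description and nothing is read from their excess over all genes. Among the 4 mice 25 of the 67 members were called at an adjusted p under 0.05 (11.4% of all genes), including all 15 with a gap of 4 or more, and DESeq2 called 40. In G164 over G144, 6 members were higher (2.72% of all genes) and 5 lower (1.29%), against 7 and 8 with DESeq2. In G174 over G184, 14 were higher (5.44%) and 8 lower (7.7%). In G184 over G144, which holds no KO mouse, 10 were higher (6.17%) and 17 lower (6.4%), so the 2 controls differed at 27 members. Without G144 tumor 6 these last counts were 6 and 11 and only 3 members were lower in G164 than in G144, as they were without G164 tumor 6; without G184 tumor 9, 8 members were higher in G174 than in G184. The 3 comparisons share mice: G144 enters 2 of them, and so does G184. The median log2 fold change of the 67 was -0.27 in G164 over G144, 0.32 in G174 over G184 and -0.46 in G184 over G144, against 0.02, 0.00 and 0.01 over all genes.

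For comparison by gene type, 54 of 1185 other processed pseudogenes tested were called among the 4 mice (4.56%), as were 14 of 110 unprocessed pseudogenes (12.7%), 61 of 952 lincRNAs (6.41%) and 2070 of 15538 protein-coding genes (13.3%). A gap of 4 or more was reached by 15 of the 1185 other processed pseudogenes (1.27%), 1 of 110 unprocessed pseudogenes (0.909%), 5 of 952 lincRNAs (0.525%) and 75 of 15538 protein-coding genes (0.483%). The other processed pseudogenes were, by the rule that chose the members, under 5 CPM in every mouse. A difference between them and the members is built in by that rule, so nothing is read from it.

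Some called members lay outside the sets. Eif4a-ps4, a match of the translation helicase gene Eif4a1, had 8.80 and 11.9 CPM in G174, 7.24 and 6.16 CPM in G164, 5.75 and 4.94 CPM in G184, and 11.3 and 9.96 CPM in G144, and was higher in G174 than in G184 by a log2 fold change of 0.95 (edgeR adjusted p = 0.030). Rpl19-ps11 was higher by 0.84 in the same comparison (adjusted p = 0.0202). Their coding matches were higher there too, Eif4a1 by 0.77 (edgeR adjusted p = 0.0287) and Rpl19 by 0.81 (adjusted p = 0.0193). Of the 50-base windows of Eif4a-ps4 and Rpl19-ps11, 95.7% and 90.8% were found in a transcript of another gene. Which copy their reads came from is thus uncertain. H2bu1-ps, a histone H2B copy with a gap just under 2, had 6.72 and 7.04 CPM in G174, 3.33 and 3.21 CPM in G164, 2.83 and 1.71 CPM in G184, and 10.9 and 8.30 CPM in G144. Its best match, Hist3h2ba, lies on chromosome 11, as does H2bu1-ps. Hist3h2ba had the same order of mice, at a mean of 5.10 CPM in G174, 2.44 in G164, 1.54 in G184 and 7.08 in G144. By contrast Eef1a1, the match of Gm6548, did not pass in G184 over G144 (log2 fold change -0.39, edgeR adjusted p = 0.139). Gm6548, a second abundant match of Eef1a1, had 41.0 and 31.3 CPM in G174, 37.4 and 30.1 CPM in G164, 40.5 and 48.7 CPM in G184, and 27.2 and 23.9 CPM in G144, and its call in G184 over G144 (log2 fold change 0.81, adjusted p = 0.0343) was lost without any 1 of 6 tumors.

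The remaining abundant members did not pass the test among the mice. Gm10736, with a best coding match in the ribosomal protein gene Rpl41, had 49.9 and 57.0 CPM in G174, 40.4 and 42.2 CPM in G164, 34.9 and 44.5 CPM in G184, and 63.2 and 45.7 CPM in G144 (edgeR adjusted p among the mice = 0.208). Gm20008 had 43.0 and 40.2 CPM in G174, 32.9 and 22.5 CPM in G164, 25.7 and 22.7 CPM in G184, and 43.5 and 31.9 CPM in G144 (adjusted p = 0.109). Gm7964, a match of the RNA-binding protein gene Hnrnpk, had 23.3 and 28.0 CPM in G174, 20.7 and 22.3 CPM in G164, 22.3 and 20.2 CPM in G184, and 25.8 and 31.3 CPM in G144 (adjusted p = 0.178). The 47 tested members with a gap under 2 had a median of 1.47-fold between the highest and lowest mouse. The 3 members just inside the threshold lay between 3.87 and 5.47 CPM in every tumor, and none passed the test among the mice.

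**Figure D4:**
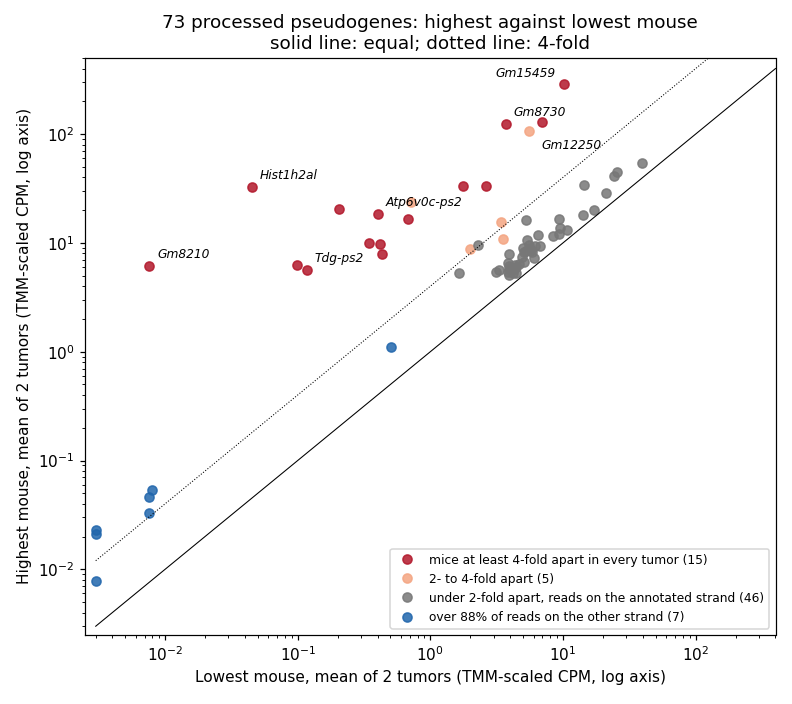
Mean of the highest mouse against the mean of the lowest mouse for the 73 members, in TMM-scaled CPM on log axes, with values under 0.003 drawn at 0.003. The 15 members with a gap of 4 or more stand above the dotted 4-fold line, most others lie near the line of equal levels, and the 7 members with most reads on the other strand lie below 2 CPM.

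The 7 members with the most reads on the other strand entered through counts that ignored strand. In 6 of them, Gm15613, Gm8275, Gm17743, Gm17230, Gm19221 and Gm9655, 99.5% to 99.96% of the stranded counts lay opposite to the annotated strand, and Gm17743 for example had 10184 counts on the forward setting and 12 on the reverse one. In Gm15789 it was 88.5%. Of the 7, 4 lie opposite to a protein-coding gene on the other strand (Ppp1cb, Pde7b, Sav1 and Kansl1l), so their counts without strand cannot be told apart from those of that gene. The other 66 members had under 10% of their stranded counts on the forward setting. Some of them overlap a protein-coding gene on their own strand, such as Rps3a3 (Pde4d), Ndufa12-ps (Rabgef1) and Gm5970 (Gm4951). Absence of the 6 in all 4 mice is thus a statement about their own strand only.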

How the data were processed

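Members, gene lists and rules were chosen with earlier results of these data known. The authors aligned reads of TruSeq Stranded total RNA libraries to GRCm38/mm10 with STAR, after bcl2fastq, and deposited raw counts per gene and lane (unstranded, forward and reverse) and counts summed per mouse, which equal the sums of the unstranded counts; the sources used here name no versions. Reverse-strand counts of 64 lane files (2 runs of 4 lanes) were summed to 8 tumors, and lanes and runs were not replicates. STAR counts only uniquely placed reads. CPM used gene totals of 50346075 to 69264893 scaled by TMM.

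edgeR 4.0.16 (quasi-likelihood, R 4.3.3) was fitted to 22187 genes past filterByExpr, with mouse as the group and Benjamini-Hochberg adjustment over all genes; DESeq2 1.42.0 was an alternative. The fit was tested on simulated counts, where 89 of 100 genes changed 4-fold and 35 of 100 changed 2-fold were called in G164 over G144. Genes left unchanged in the simulation were called as well, 13 in G164 over G144 and 16 among the 4 mice. Standard errors of log2 fold changes are edgeR's, and SDs are over 2 tumors. Transcripts and coordinates came from GENCODE M21 on GRCm38: 54487 of 55385 identifiers matched with version and 657 with another version. Coding matches were the best blastn 2.17.0 hits of at least 100 bases. Named members were those present in some mice and absent in others, the 8 with the highest mean, up to 5 in each direction per comparison, and those at the threshold; others were named after their values were seen. The pseudogenes outside the members that were high in G164 and G144 are counted but not reported singly here.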

Additional observations from a re-analysis of the deposited data

Results flagged for a closer look

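For 17 named members the log2 fold change of KO over control mouse differed between the homozygous and the heterozygous comparison. The share of all genes that differed in this way is not given here, so nothing is read from the number 17. The test was of the difference of the 2 log2 fold changes, G174 over G184 minus G164 over G144, with edgeR's adjusted p from 8.83e-06 to 0.0291. The difference was -9.93 ± 0.21 (SE) for Gm8730, -10.62 ± 0.42 for Gm3375, -8.81 ± 0.39 for Gm14165 and -7.20 ± 0.27 for Gm9625, the members high in G164 and G184. It was 17.14 ± 0.58 for Hist1h2al, 8.63 ± 0.39 for Rpl34-ps1, 8.19 ± 0.29 for Rps3a3, 4.02 ± 0.26 for Rps3a2 and 3.15 ± 0.39 for H2bu1-ps, which were high in G174 and G144. The Hist1h2al value rests on 11 and 6 reads in G164 and G184 and depends on the prior count of the fit. For the members low in G184 alone it was 5.47 ± 0.33 for Atp6v0c-ps2 and 5.18 ± 0.45 for Rnps1-ps, and for Tdg-ps2, high in G174 alone, 4.75 ± 0.38. Among the members described above as high in G184, it was -5.08 ± 0.50 for Gm12250, -4.58 ± 0.67 for BC023105 and -7.14 ± 0.77 for Gm5970. Smaller differences were 0.68 ± 0.17 for Gm15459 and 1.22 ± 0.31 for Gm20008. The named members were picked in part by their fold changes in these same comparisons, so these p-values restate that choice and are no independent support. Each of the 4 mice stands for its own group in this test, so a difference between mice and a difference between genotypes cannot be told apart.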

How the results depend on the processing

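Counts of called members under DESeq2 size factors, no filter on low counts, unstranded counts, run 1 alone and run 2 alone stayed within 1.5 times those reported. DESeq2's own tests called 40 members among the 4 mice, against 25, and 8 lower in G164 than in G144, against 5. Leaving out 1 tumor at a time, where the lone tumor is assumed to vary like the others, gave 21 to 24 members among the mice, 4 to 6 higher and 3 to 6 lower in G164 than in G144, 8 to 13 higher and 6 to 8 lower in G174 than in G184, and 6 to 9 higher and 11 to 19 lower in G184 than in G144. The lowest of these came without G144 tumor 6 (3 lower in G164 than in G144, and 6 higher and 11 lower in G184 than in G144), without G164 tumor 6 (3 lower in G164 than in G144) and without G184 tumor 9 (8 higher in G174 than in G184). Members present in some mice and absent in others numbered 1 with limits of 0.05 and 0.5 CPM, 4 with limits of 0.2 and 2 CPM, 1 among members of at least 10 CPM and 2 to 3 without a tumor. The 15 members at least 4-fold apart, a description chosen after seeing the data, were 15 to 16 without a tumor and 17 at a limit of 3-fold. Over 44 fold changes of named members, 590 of 616 recomputed values kept the call, 26 lost it, all on leaving out a tumor, and 0 changed sign. No paired analysis was possible because the mice share fewer than 2 tumor numbers. Reads placed at several loci were not counted in any member.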

Other observations

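Processed pseudogenes below the threshold of 5 CPM, outside the members, were in part divided by the same mice. Others with a gap of 2 or more divided the mice in ways that no member with such a gap did, such as 2 high in G174 and G184. Those others are not counted below. Of 29 with a gap of 2 or more in the 5 sets of mice described above, 18 had their coding match on the chromosomes named there and 2 lay on such a chromosome themselves. High in G174 and G144 were 3, which matched Slc35a3, Rpl34 and Capza1, all on chromosome 3. Of 10 that were high in G164 and G184, 6 matched genes on chromosomes 5 or 14, among them Rplp0, Wsb2, Hmgb1, Osgep and Tox4. Low in G184 alone were 7, of which 5 matched genes on chromosome 17 (Mrps10, Wtap, Cd2ap, Glo1 and Hsp90ab1). High in G174 alone were 6, of which 1 matched a gene on chromosome 10 and 4 matched genes on chromosome 12. The chromosomes were read from the members first, and no test was made. How many processed pseudogenes outside the members with a gap under 2 match genes on these chromosomes was not counted.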
